A study of Rattus norvegicus with 9 samples.

Results

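Genes of sugar breakdown and of the response to low oxygen were followed through 9 RNA-sequencing libraries of HBZY-1, an established rat cell line of glomerular mesangial origin; mesangial cells are contractile and support the capillary tuft of the kidney. The genes were taken from a list of 10 Ensembl identifiers, given in the order Hif1a, Slc2a1, Hk2, Ldha, Pgk1, Eno1, Pkm, Vegfa, Pdk1 and Bnip3, and all 10 were found among the 30560 genes of the deposited table. The libraries form 3 groups of 3. The control group carries no other description. The model group was induced with LPS, lipopolysaccharide from the outer membrane of bacteria. The extract group received freeze-dried powder of the leech Poecilobdella manillensis, extracted in water, at what the labels call a high dose. The labels give no dose in figures, no exposure time and no oxygen tension, and do not say whether the extract group also received LPS. The replicates are called biological, without saying whether they were grown separately, so the p-values measure only the spread between these libraries, which may be technical. The study asks how the leech powder acts on inflammatory injury of mesangial cells.

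HIF-1 is a transcription factor made of an oxygen-controlled alpha subunit, encoded by Hif1a, and a constant beta subunit. With enough oxygen the alpha protein is hydroxylated and degraded, so much of its control lies in the protein and not in its messenger RNA. Stable HIF-1 binds a short core motif in DNA and raises transcription of glucose transporters, glycolytic enzymes, vascular growth factor and genes that limit mitochondrial work. Glycolysis splits glucose into pyruvate, and lactate dehydrogenase turns pyruvate into lactate. Mesangial cells are known to make VEGF-A, and the glucose transporter GLUT1 has been studied in them in diabetic kidney disease.

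All 10 genes were lower in the extract libraries than in the LPS libraries and lower than in the control libraries, and no library of the extract group reached the level of any library of the other groups for any of the 10. Over all tested genes 25.0% and 29.4% were called lower in these 2 comparisons, and 27.8% and 34.8% had lower libraries without overlap. None of the 10 was higher, where 34.4% and 22.3% of tested genes were called higher. The falls against LPS ranged from 2.71-fold for Bnip3, a mitochondrial protein that promotes mitophagy, and 2.62-fold for Vegfa, the vascular endothelial growth factor, to 1.05-fold for Pkm, a pyruvate kinase, whose small difference from LPS lost its call under several alternatives. Hk2 fell 1.98-fold, Slc2a1 1.79-fold and Pdk1 1.55-fold, while the abundant enzymes Eno1, Pgk1 and Ldha fell between 1.22-fold and 1.32-fold. LPS against control gave small changes in both directions: Vegfa and Hk2 were higher (2 of 10, against 9.79% of tested genes), Ldha, Pgk1, Eno1 and Pkm were lower (4 of 10, against 30.9%), and Hif1a, Slc2a1, Pdk1 and Bnip3 did not pass the test.

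Values are TPM, the share of a transcript among all transcripts of a library after division by its length, scaled to 1000000 per library. TPM can therefore be compared between genes, but it is relative, and a library with more RNA per cell cannot be told from one with less. Read depth is unknown from TPM, so no counting interval is given. Fold changes and tests are on log2(TPM + 1), from limma fitted to all 12192 genes that averaged 1 TPM or more, with p-values adjusted by the Benjamini-Hochberg method over all of them, and a gene is called changed at an adjusted p below 0.05. All 10 genes passed that filter in each group by a wide margin, the lowest single value being 37.84 TPM for Hk2. The 3 comparisons share libraries and are given side by side. The labelled cell type was not checked against marker genes, because 0 of the identifiers could be paired with symbols through the reference table.

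The core motif bound by HIF-1 is written here as ACGTG or GCGTG, searched on both strands in the RefSeq windows of 300 bases (250 before to 50 after the annotated start, build GRCr8). Windows were found by symbol for 9 of the 10 genes, and Pgk1 had none; Eno1 and Vegfa have 2 windows each. These forms can share bases, since CACGTG reads as ACGTG on either strand. At least 1 of the forms was present for 6 of the 9 genes (Hif1a, Slc2a1, Ldha, Eno1, Pdk1 and Bnip3) and in 41.6% of all 33469 windows, and ACGTG alone in 19.3% of them. The count is by gene and the shares are by window, with a form in both windows of Eno1 and in neither of Vegfa. Windows of these 6 genes had a GC content of 57.3% to 73.7%, against a median of 51.7% over all windows. Of the windows without a form, those of Pkm (61.7%) and Vegfa (63.3% and 57.3%) lay within that range, and that of Hk2 had 51.0%. The shares of windows were not matched for GC content. The 250 bases before the start are shown 5′ to 3′ along the gene for 4 members, Bnip3 with the largest fall, Slc2a1 and Hk2 at the entry of glucose, and Ldha at the end of the pathway, with the motif in capitals.
Bnip3 chr1:203154963-203155212 (- strand): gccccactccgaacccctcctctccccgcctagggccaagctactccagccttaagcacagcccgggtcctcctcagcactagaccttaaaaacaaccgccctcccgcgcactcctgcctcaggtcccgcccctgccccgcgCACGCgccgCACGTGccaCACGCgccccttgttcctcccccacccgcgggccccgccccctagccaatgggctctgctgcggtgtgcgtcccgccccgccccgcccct
Slc2a1 chr5:138002272-138002521 (+ strand): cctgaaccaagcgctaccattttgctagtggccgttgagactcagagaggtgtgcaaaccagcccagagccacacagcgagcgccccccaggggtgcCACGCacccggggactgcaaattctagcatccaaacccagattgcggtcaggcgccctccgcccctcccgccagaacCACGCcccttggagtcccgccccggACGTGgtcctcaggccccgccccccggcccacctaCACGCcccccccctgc
Hk2 chr4:116841276-116841525 (- strand): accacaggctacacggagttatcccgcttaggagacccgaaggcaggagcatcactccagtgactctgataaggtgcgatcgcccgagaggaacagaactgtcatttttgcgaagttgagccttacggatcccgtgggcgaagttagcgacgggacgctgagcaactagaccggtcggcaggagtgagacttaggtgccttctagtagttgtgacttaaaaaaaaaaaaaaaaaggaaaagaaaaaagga
Ldha chr1:106507842-106508091 (+ strand): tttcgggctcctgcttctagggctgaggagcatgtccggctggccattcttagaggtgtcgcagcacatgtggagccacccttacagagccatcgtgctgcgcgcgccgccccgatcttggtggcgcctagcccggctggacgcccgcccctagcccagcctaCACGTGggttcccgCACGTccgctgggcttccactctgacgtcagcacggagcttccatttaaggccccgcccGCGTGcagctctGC
The Bnip3 stretch holds the 2 forms within a few bases of each other. Their first bases lie from position -108 to -90 counted back from the start. The Slc2a1 stretch holds 1 ACGTG at -51 and 3 GCGTG on the opposite strand. The Ldha stretch has ACGTG on both strands at -87 and -86, again at -73, and GCGTG at -14 and -2, the last of which runs over the start. The Hk2 stretch holds neither, and neither do the windows of Vegfa and Pkm. A match is only a run of letters, and its absence from 300 bases says nothing of sites farther away.

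Hif1a (ENSRNOG00000008292) encodes the regulated subunit itself. It stood at 169.33, 174.73 and 170.57 TPM in the control libraries, at 169.91, 176.98 and 186.18 TPM with LPS and at 140.77, 145.52 and 151.0 TPM with the extract. Control and LPS overlapped, and the 3 extract libraries lay below all 6 others. The log2 fold change was 0.05 ± 0.040 (SE) for LPS against control, with a 95% confidence interval of -0.04 to 0.14 (adjusted p = 0.365 by limma). It was -0.28 ± 0.040 in extract versus LPS (adjusted p = 0.000221 by limma) and -0.23 ± 0.040 in extract versus control (adjusted p = 0.000978 by limma). With the libraries rescaled by the median of ratios the LPS difference was 0.14 and passed (adjusted p = 0.0159 by limma). The messenger RNA does not report the amount of the protein, which was not measured.

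**Figure D1:**
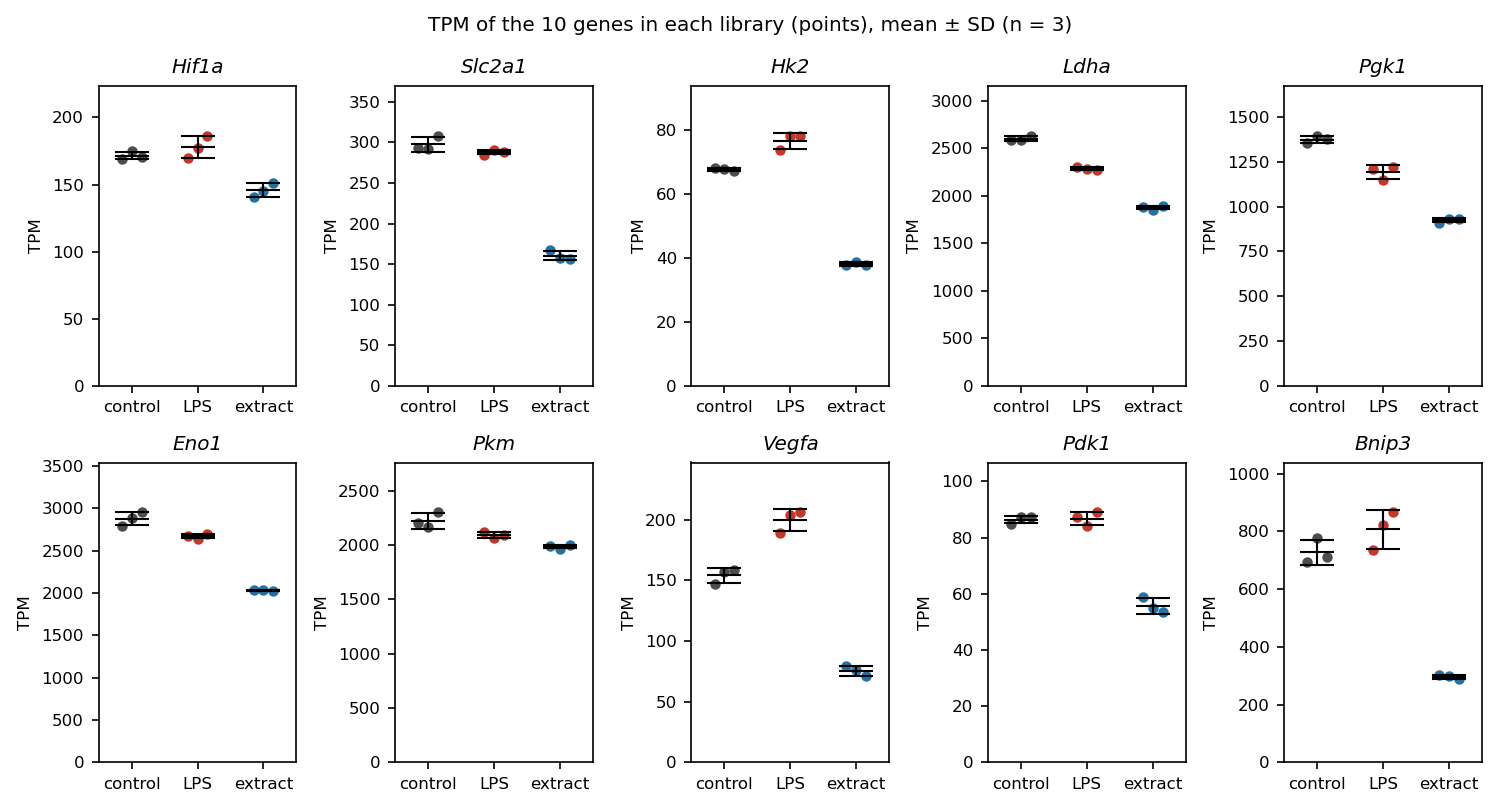
TPM of each of the 10 genes in every library (y axis from 0, own scale per gene) for the control, LPS and extract groups; points are libraries and bars the mean ± SD of 3. The extract libraries lie below all others in every panel, and Vegfa and Hk2 are the 2 genes with LPS libraries all above control.

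Glucose enters through GLUT1, encoded by Slc2a1 (ENSRNOG00000007284), and is then trapped in the cell by phosphorylation, for which Hk2 (ENSRNOG00000006116) encodes hexokinase 2. Slc2a1 was at 293.19, 291.21 and 307.83 TPM in control, at 284.87, 290.91 and 288.48 TPM with LPS and at 166.97, 157.34 and 156.5 TPM with the extract. The extract libraries stood well apart, at 55.6% of the LPS mean. The log2 fold change was -0.84 ± 0.035 (SE) in extract versus LPS (adjusted p = 1.15e-07 by limma) and -0.89 ± 0.035 in extract versus control (adjusted p = 1.04e-07 by limma). In LPS versus control it was -0.05, with a 95% confidence interval of -0.12 to 0.03 (adjusted p = 0.335 by limma); with median-of-ratios rescaling it was 0.05 (adjusted p = 0.351 by limma).

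Hk2 was the least abundant of the 10 genes in each group and one of 2 that rose with LPS. It was at 68.21, 67.87 and 67.37 TPM in control, at 73.75, 78.24 and 78.24 TPM with LPS and at 37.84, 38.78 and 37.96 TPM with the extract. The 3 groups did not overlap: LPS was highest, control between and extract lowest. Its log2 fold change was 0.18 ± 0.034 (SE) for LPS against control (adjusted p = 0.00264 by limma), -0.99 ± 0.034 in extract versus LPS (adjusted p = 4.35e-08 by limma) and -0.81 ± 0.034 in extract versus control (adjusted p = 1.48e-07 by limma). The promoter stretch shown for Hk2 lacks the motif and that of Slc2a1 holds it 4 times. Their log2 fold changes against LPS were -0.99 and -0.84. Neither that difference nor a link between the motif and the fold changes was tested.

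The lower part of glycolysis was represented by Pgk1 (ENSRNOG00000058249, phosphoglycerate kinase, which makes ATP), Eno1 (ENSRNOG00000017895, alpha-enolase), Pkm (ENSRNOG00000011329, the last step, to pyruvate) and Ldha (ENSRNOG00000013009, lactate dehydrogenase A). These were the most abundant of the 10 genes, and in the control group Eno1, Ldha, Pkm and Pgk1 followed in that order. Together the 4 took 0.908% of all TPM in control, 0.824% with LPS and 0.682% with the extract, or summed means of 9075 ± 163 (SD, n = 3), 8242 ± 95.5 and 6815.4 ± 24.5 TPM. Without overlap, the libraries of each of the 4 were lower in LPS than in control and lower in extract than in LPS. Taken singly, these comparisons had such falls in 37.6% and 27.8% of tested genes. The share of tested genes lower in both was not computed. The step from control to LPS was not kept for Eno1 (-0.01) and Pkm (0.01) on the log2 scale with median-of-ratios rescaling. With quantile normalization it was -0.13 for Eno1 and -0.11 for Pkm.

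Eno1 was at 2793.96, 2889.09 and 2950.83 TPM in control, at 2674.07, 2642.71 and 2691.7 TPM with LPS and at 2031.82, 2035.58 and 2019.9 TPM with the extract. The extract libraries were nearly equal to each other, with a coefficient of variation of 0.403%. Its log2 fold change was -0.11 ± 0.026 (SE) for LPS against control (adjusted p = 0.00943 by limma). This did not pass after median-of-ratios rescaling (-0.01, adjusted p = 0.746 by limma) or without the filter (adjusted p = 0.0508 by limma). In extract versus LPS it was -0.40 ± 0.026 (adjusted p = 1.53e-06 by limma) and in extract versus control -0.50 ± 0.026 (adjusted p = 5.67e-07 by limma).

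Ldha was at 2586.98, 2590.72 and 2629.32 TPM in control, at 2304.1, 2280.79 and 2275.76 TPM with LPS and at 1885.21, 1854.08 and 1888.15 TPM with the extract. Its libraries were tight within each group, with coefficients of variation of 0.661% to 1.01%. The log2 fold change was -0.19 ± 0.023 (SE) for LPS against control (adjusted p = 0.00017 by limma) and -0.29 ± 0.023 in extract versus LPS (adjusted p = 4.44e-06 by limma), adding up to -0.47 in extract versus control. Pgk1 followed the same course, at 1355.04, 1393.65 and 1374.17 TPM in control, 1210.96, 1146.69 and 1221.75 TPM with LPS, and 909.69, 930.85 and 930.33 TPM with the extract. Its log2 fold change was -0.20 ± 0.030 for LPS against control (adjusted p = 0.000573 by limma), -0.37 ± 0.030 in extract versus LPS (adjusted p = 5.77e-06 by limma) and -0.57 in extract versus control. The falls of Ldha and Pgk1 with LPS passed under each alternative that was run.

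Pkm differed least. It was at 2198.12, 2163.87 and 2299.26 TPM in control, at 2121.44, 2062.79 and 2093.23 TPM with LPS and at 1994.89, 1967.88 and 1997.7 TPM with the extract. The groups did not overlap, but the gaps were small, and the lowest control library exceeded the highest LPS library by less than the control SD of 70.4 TPM. The log2 fold change was -0.09 ± 0.029 (SE) for LPS against control (adjusted p = 0.0391 by limma) and -0.07 ± 0.029 in extract versus LPS (adjusted p = 0.0466 by limma). Each call was lost under several alternatives, among them the fit without a filter (adjusted p = 0.114 and 0.132 by limma). The first became 0.01 after median-of-ratios rescaling and the second 0.04 after quantile normalization. They were also lost when single libraries were left out. The first was lost without control replicate 1 or 3, LPS replicate 2 or 3, or any extract library (adjusted p up to 0.139 by limma). The second was lost without control replicate 1, LPS replicate 1 or 3, or any extract library (adjusted p up to 0.128 by limma). The fall against control, -0.16 ± 0.029 (adjusted p = 0.00121 by limma), passed under each alternative that was run. The order of levels changed as well: Ldha exceeded Pkm in each control and LPS library, and Pkm exceeded Ldha in each extract library.

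**Figure D2:**
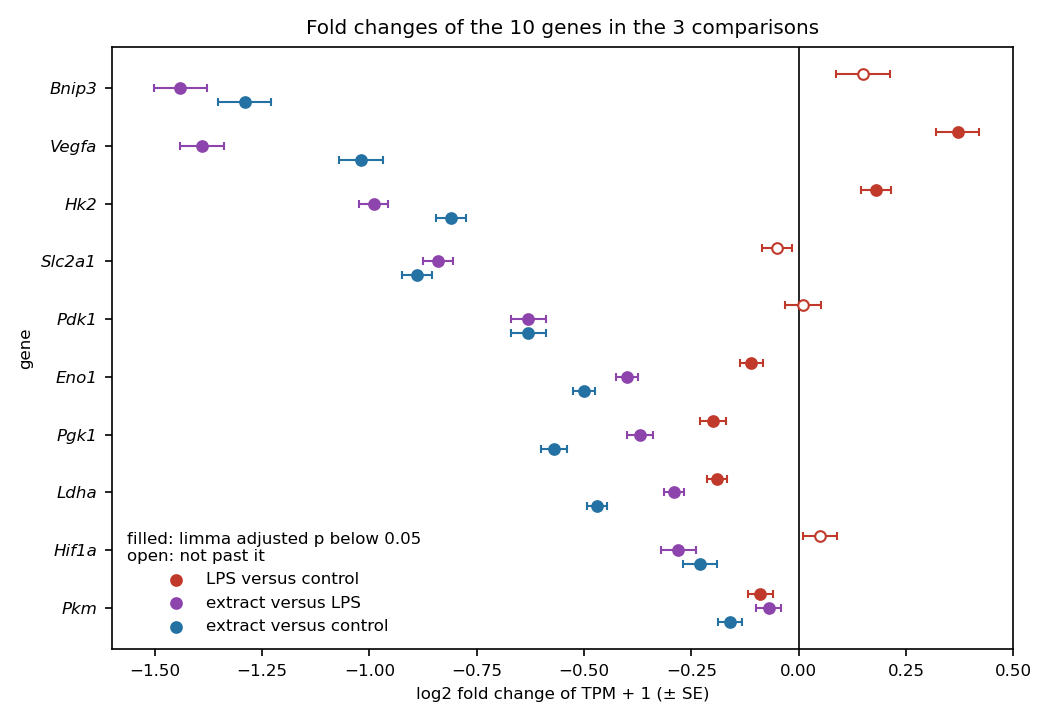
Log2 fold change of TPM + 1 (x axis, ± SE from limma) for the 10 genes (y axis, sorted by extract versus LPS) in the 3 comparisons; filled points have an adjusted p below 0.05. The extract comparisons run from -1.44 for Bnip3 to -0.07 for Pkm, all left of 0, while LPS versus control lies between -0.20 and 0.37.

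Pdk1 (ENSRNOG00000001517) encodes pyruvate dehydrogenase kinase 1, which inhibits pyruvate dehydrogenase in mitochondria. It was at 84.79, 87.28 and 87.14 TPM in control, at 87.17, 84.21 and 88.9 TPM with LPS and at 58.8, 54.76 and 53.48 TPM with the extract. Control and LPS libraries were interleaved, and the extract libraries lay clearly below. The log2 fold change in LPS versus control was 0.01, with a 95% confidence interval of -0.09 to 0.10 (adjusted p = 0.928 by limma). In extract versus LPS it was -0.63 ± 0.041 (SE, adjusted p = 1.3e-06 by limma), and in extract versus control it was also -0.63 (adjusted p = 2.29e-06 by limma).

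Vegfa (ENSRNOG00000019598) encodes the growth factor that maintains glomerular capillaries. It was at 147.23, 157.02 and 158.63 TPM in control, at 189.1, 203.66 and 205.94 TPM with LPS and at 79.48, 75.76 and 71.28 TPM with the extract. LPS libraries were all above control and extract libraries all below. It rose 1.29-fold with LPS, a log2 fold change of 0.37 ± 0.051 (SE, adjusted p = 0.000376 by limma), which was the highest of the 10 genes. In extract versus LPS it fell by 1.39 ± 0.051 on the log2 scale (adjusted p = 5.94e-08 by limma), and it dropped by 1.02 ± 0.051 against control (adjusted p = 4.04e-07 by limma). Vegfa stood above Hif1a in each LPS library and below it in each control and extract library.

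Bnip3 (ENSRNOG00000017243) had the largest fall. It was at 692.77, 777.57 and 710.97 TPM in control, at 734.59, 823.18 and 865.69 TPM with LPS and at 301.74, 300.37 and 287.78 TPM with the extract. Control and LPS overlapped, and these libraries were the most scattered of the 10 genes, with coefficients of variation of 6.14% and 8.28%. The extract libraries, at 36.7% of the LPS mean, were far below both. The log2 fold change was -1.44 ± 0.062 (SE) in extract versus LPS (adjusted p = 1.3e-07 by limma) and -1.29 ± 0.062 in extract versus control (adjusted p = 3.29e-07 by limma). Between LPS and control it was 0.15, with a 95% confidence interval of 0.01 to 0.29 (adjusted p = 0.0828 by limma). That difference did pass after median-of-ratios rescaling (0.24, adjusted p = 0.0134 by limma), after quantile normalization (adjusted p = 0.0363 by limma), without control replicate 2 (adjusted p = 0.0359 by limma) and without LPS replicate 1 (adjusted p = 0.0116 by limma).

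Set against all genes, 10 of 10 were lower in extract versus LPS, where 25.0% of the 12192 tested genes were called lower, and 10 of 10 in extract versus control, where 29.4% were. The median log2 fold change of the 10 genes was -0.51 against 0.04 over all tested genes in the former and -0.60 against -0.04 in the latter. Libraries did not overlap, in the lower direction, for all 10 genes in both comparisons, against 27.8% and 34.8% of tested genes. These shares were not matched for expression level or spread. The standard errors of the 10 genes ran from 0.023 to 0.062, against a median of 0.064 over all tested genes, so small changes pass more easily. Bnip3 held place 129 from the lowest log2 fold change in extract versus LPS, Vegfa place 136, Hk2 place 299 and Slc2a1 place 396, whereas Pkm held place 4443. Changes of at least 2-fold down were found for Bnip3 and Vegfa in both comparisons, and for 2.40% and 2.31% of tested genes. Hk2 lay at this limit in extract versus LPS, at -0.99, and at -1.04 with median-of-ratios rescaling. Vegfa in extract versus control was at -1.02, and at -0.98 with that rescaling.

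In LPS versus control, 2 of 10 were higher, where 9.79% of tested genes were called higher, and 4 of 10 were lower, where 30.9% were called lower. Libraries did not overlap for the 2 higher genes and for 5 lower ones, the 4 called and Slc2a1, against 12.5% and 37.6% of tested genes. The median of the 10 genes was -0.02, against -0.08 over all tested genes. This comparison depended on scaling: median-of-ratios rescaling moved the split over all genes from 1193 higher and 3769 lower to 2117 and 2264, and that of the 10 genes from 2 higher and 4 lower to 4 and 2. The 4 higher were then Hif1a, Hk2, Vegfa and Bnip3, and the 2 lower Ldha and Pgk1. With quantile normalization the 10 genes gave 3 higher and 4 lower, with Eno1 (-0.13) and Pkm (-0.11) still among the lower.

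**Figure D3:**
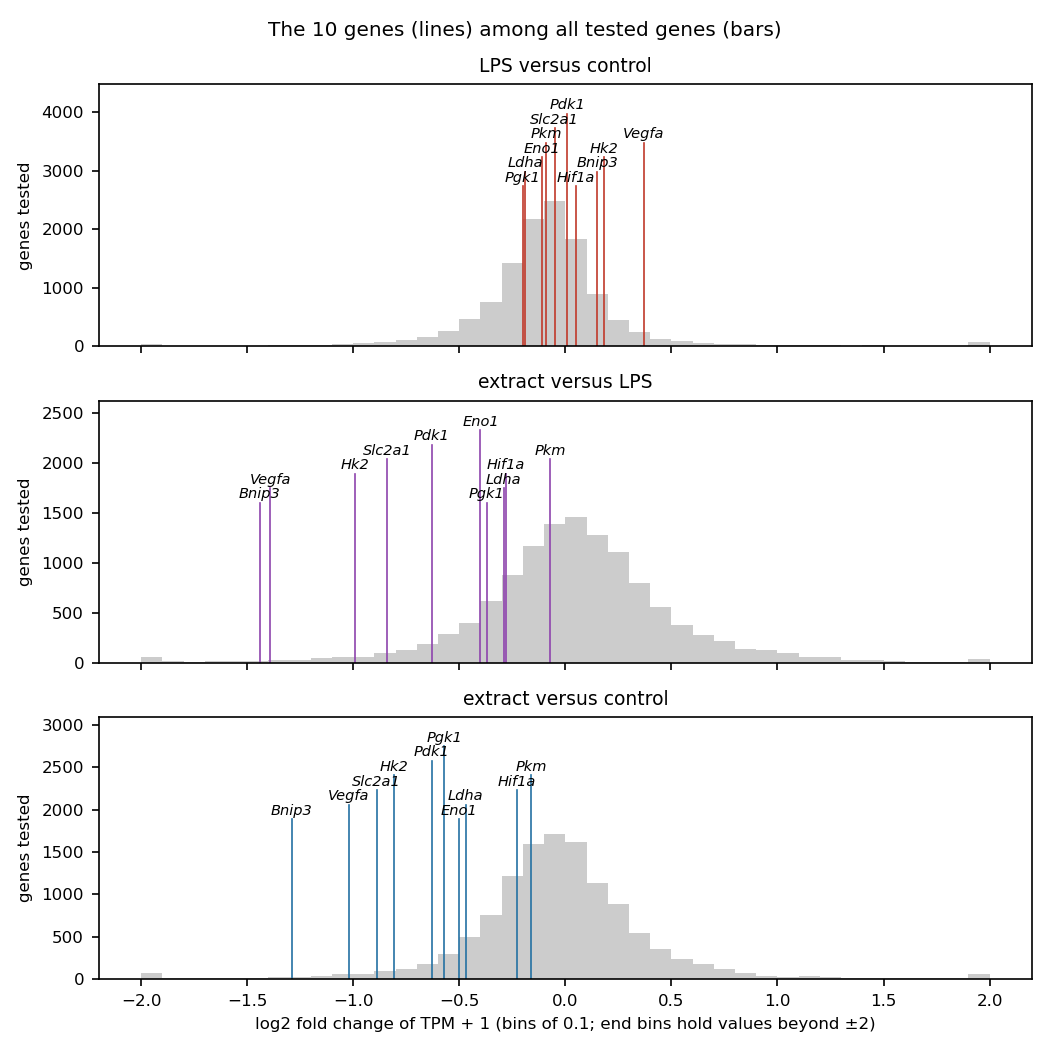
Number of tested genes (y axis, grey bars) by log2 fold change of TPM + 1 (x axis, bins of 0.1, end bins holding more extreme values) in the 3 comparisons, with a line for each of the 10 genes. The lines spread around the centre in LPS versus control and lie to the left of 0 in both extract comparisons, Bnip3 farthest out and Pkm nearest to 0.

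A ratio between 2 genes of the same library does not change when each library is multiplied by 1 factor, as in median-of-ratios rescaling, but it can change under quantile normalization. Ratios to Hif1a were therefore computed for the other 9 genes, a measure chosen after the values were seen, and they show unequal change only. With 3 libraries against 3 the exact two-sided permutation test cannot go below p = 0.1, so no ratio can pass 0.05. Ratios of all other tested genes to Hif1a were not computed. The counts below therefore have no share over all genes beside them and cannot be called particular to these genes. In extract versus LPS, 7 of the 9 ratios were lower without overlap, that of Pkm was higher and that of Ldha overlapped. For Eno1 this depended on the scaling. Its log2 fold change was -0.40 beside -0.28 for Hif1a with TPM as deposited, and -0.30 beside -0.32 with quantile normalization. The gap between the ratios was narrow for Eno1, at 14.4 in extract replicate 1 and 14.5 in LPS replicate 3. For Pgk1 it was narrow too, at 6.46 in extract replicate 1 and 6.48 in LPS replicate 2. The ratio of Vegfa to Hif1a was 0.869, 0.899 and 0.93 in control, 1.11, 1.15 and 1.11 with LPS, and 0.565, 0.521 and 0.472 with the extract. That of Bnip3 was 4.09, 4.45 and 4.17 in control, 4.32, 4.65 and 4.65 with LPS, and 2.14, 2.06 and 1.91 with the extract. Relative to Hif1a, these 2 genes had the largest falls of the 9 between LPS and extract libraries. In LPS versus control the ratios of Vegfa and Hk2 were higher without overlap, those of Ldha, Pgk1 and Eno1 lower, and the other 4 overlapped.

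The genes differed in how alike their courses were. Likeness was measured as the root mean square difference between the centred log2(TPM + 1) values of 2 genes over the 9 libraries, where a small value means a like course. Pgk1 and Eno1 were closest at 0.0475, with Ldha next to Eno1 at 0.0497. Slc2a1 and Hk2 were each other's nearest member at 0.101, as were Vegfa and Bnip3 at 0.126 and Hif1a and Pkm at 0.101. The member nearest to Pdk1 was Eno1, at 0.103. The widest gap was 0.602, between Bnip3 and Pkm. Among all tested genes, Eno1 was number 8 in likeness to Pgk1, and Vegfa number 12 in likeness to Bnip3. Pkm, by contrast, was only number 1467 for Hif1a, and Eno1 number 234 for Pdk1. The nearest gene outside the list was ENSRNOG00000031827 for Hif1a, at 0.0233, and ENSRNOG00000002218 for Slc2a1, at 0.0433. The latter had group means of 20.1 TPM in control, 19.7 TPM with LPS and 10.9 TPM with the extract.

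The transcript table gave a second view of the same libraries. Transcripts were tied to a gene where consecutive rows summed to its TPM in all 9 libraries, and 23 transcripts of the 10 genes had a mean of at least 1 TPM. In extract versus LPS 20 of the 23 were lower and 0 higher, where 16.2% of 19383 tested transcripts were lower and 22.9% higher (limma, adjusted over all of them). In extract versus control 19 were lower and 0 higher, where 18.0% were lower and 14.0% higher. Between LPS and control 3 were higher and 5 lower, where 5.96% and 17.0% were. The 5 lower transcripts became 1 after median-of-ratios rescaling and between 2 and 4 when a library was left out.

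Hif1a had 1 such transcript, and Slc2a1, Hk2, Pgk1 and Pdk1 each had 1 that carried at least 99.9% of the gene on average. Vegfa, whose splice forms differ in how tightly the protein is held in the matrix, was carried mainly by ENSRNOT00000026559 and ENSRNOT00000044163. The former was at 84.0 ± 3.32 TPM (SD, n = 3) in control, 103.9 ± 6.41 with LPS and 38.6 ± 3.21 with the extract. The latter was at 55.8 ± 3.75, 78.0 ± 1.53 and 27.4 ± 1.96 TPM. Both rose with LPS, by 0.30 (adjusted p = 0.0131 by limma) and 0.48 (adjusted p = 0.001 by limma) on the log2 scale, and both fell in extract versus LPS, with log2 fold changes of -1.41 (adjusted p = 1.75e-06 by limma) and -1.48 (adjusted p = 1.15e-06 by limma). A smaller one, ENSRNOT00000026637, held 8.42% of the gene in control, 7.33% with LPS and 11.4% with the extract. Its log2 fold change in extract versus LPS was -0.71 (adjusted p = 0.00348 by limma). Which protein form each transcript encodes was not matched here.

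Pkm is spliced into alternative forms, known as M1 and M2, and its TPM was divided among 4 transcripts. The largest, ENSRNOT00000083666, held 53.5% of the gene in control, 54.0% with LPS and 53.0% with the extract, and ENSRNOT00000015332 held 32.2%, 31.3% and 33.7%. The shares moved by at most a few points between groups. ENSRNOT00000083666 fell in extract versus LPS (-0.10 ± 0.029, adjusted p = 0.0237 by limma), while ENSRNOT00000015332 was at 655 ± 33.7 TPM with LPS and 668.7 ± 4.59 TPM with the extract (adjusted p = 0.557 by limma). The forms were not told apart as M1 and M2 here. Eno1 was likewise divided, with 61.1% of the gene in ENSRNOT00000114907 in control, 60.9% with LPS and 62.2% with the extract. Its transcript ENSRNOT00000024106 stood out in control replicate 3 at 216.67 TPM and in LPS replicate 2 at 213.64 TPM, against 149.52 to 155.85 TPM in the other 4 libraries of those groups. The Pkm transcript ENSRNOT00000098634 was highest in the same 2 libraries, at 338.9 and 326.78 TPM. Estimates that split reads among overlapping transcripts can shift in this way, and the cause was not tested.

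**Figure D4:**
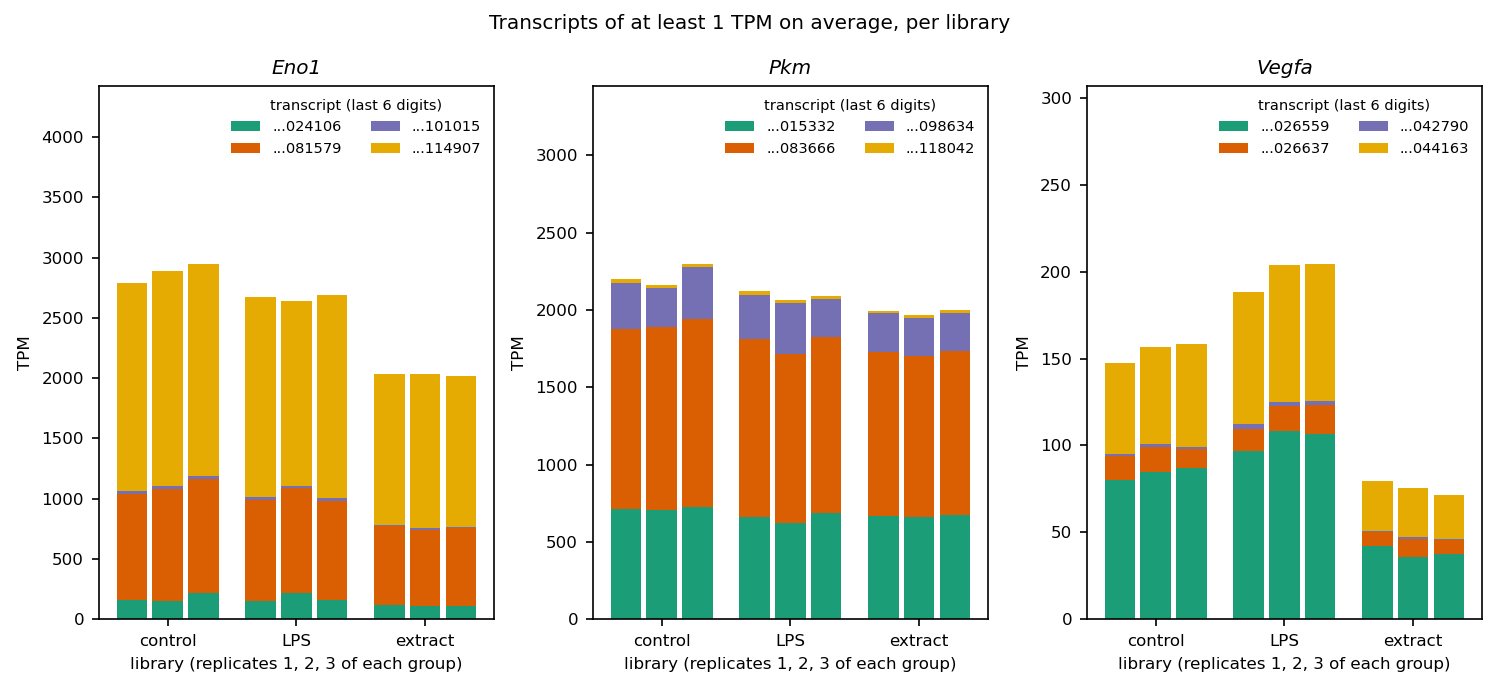
TPM (y axis) of the transcripts of Eno1, Pkm and Vegfa with a mean of at least 1 TPM, stacked for each of the 9 libraries (x axis). The shares of the largest transcripts are similar in the 3 groups. The height of the stack falls in the extract libraries for Eno1 and Vegfa and little for Pkm.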

How the data were processed

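RNA from HBZY-1 cells was sequenced in 9 libraries, 3 each from control, LPS and extract cells. The deposited values are TPM per gene (30560) and per transcript (54991), made by the authors. Tools listed per the submitters' processing notes are RSEM 1.3.3, HISAT2 2.1.0 and fastp, with no settings. For genome build, annotation, strandedness and depth: not given in the sources used here. TPM is relative, so strong changes in abundant genes shift all others. Columns were assigned by the code opening each title.

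Symbols of the 10 identifiers came with the list. The reference table (GRCr8, 47357 genes) paired 0 identifiers, so the 4 lists of other pathway genes and 5 of cell type markers were not analysed here. The members, lists and tests were chosen with earlier results of these data known.

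Genes averaging 1 TPM or more were taken as log2(TPM + 1) and fitted with limma 3.58.1 (R 4.3.3) with a mean per group, a mean-variance trend and 6 residual degrees of freedom, two-sided, with Benjamini-Hochberg adjustment over all 12192 genes or 19383 transcripts. The procedure was tested on simulated data. Named were all 10 members, each one's nearest member, and the nearest other gene of Hif1a and Slc2a1. Tried as alternatives: no filter or one of 5 TPM, a pseudocount of 0.1 or 5, median-of-ratios and quantile scaling, the replicate number as a block, only the 2 groups compared, no trend, and leaving out each library. Promoter windows are RefSeq's, matched by symbol.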

Additional observations from a re-analysis of the deposited data

How the results depend on the processing

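In extract versus control, all 10 genes were called lower under each alternative run, and in extract versus LPS 9 or 10 of 10 were, Pkm being the gene lost; 0 were called higher in either. In LPS versus control the 2 higher became 4 and the 4 lower became 2 with median-of-ratios scaling, and the 4 lower became 2 without a filter. Quantile scaling gave 3 higher and 4 lower there. Of the transcripts in that comparison, the 3 higher became 6 with median-of-ratios scaling, and the 5 lower became 1 with it, 2 without a filter, 2 with only the groups compared and 3 without a trend. Leaving out 1 library gave between 2 and 4 lower transcripts. The cause was not tested. Over all genes, LPS versus control went from 1193 higher and 3769 lower to 2117 and 2264 (median of ratios) or 1940 and 2402 (quantile). Signs turned for small differences only: Slc2a1 in LPS versus control (-0.05) was 0.05 under median-of-ratios and 0.03 under quantile scaling, Pkm was 0.01 with the former there and 0.04 with the latter in extract versus LPS, and Pdk1 (0.01) was -0.01 without control replicate 1 and without LPS replicate 3. With the replicate block, LPS versus control had 2 genes higher and 3 lower, extract versus LPS 9 lower and extract versus control 10 lower, the call of Pkm being lost in the former 2 (adjusted p = 0.0503 and 0.0563). Libraries with the same number deviated from their group means with correlations of -0.055 to 0.095, and those with different numbers with up to 0.089; none reached the 0.1 asked of a pairing, so the numbers were not taken to pair the libraries. As a hint to the contrary, 6 of 9 libraries were closest to one of their own number. Without read depth, precision rests on 3 libraries a group.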
